A study of Mus musculus with 2 samples.

Results

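Potassium channel genes, the mouse genes whose symbols begin with Kcn, were examined for binding of IRF4 in CH12.LX, an immortalized mouse B-cell lymphoma line of strain B10.H-2aH-4bp/Wts. All 94 RefSeq protein-coding genes of that name on chromosomes 1 to 19 and X of GRCm38 (mm10) were taken, out of 21627 protein-coding genes there. A gene was called bound when a summit of the optimal IRF4 peak list lay inside it or within 10 kb of either end. IRF4, a transcription factor of lymphocytes that joins ETS and AP-1 factors on composite DNA elements, was mapped by chromatin immunoprecipitation and sequencing (ChIP-seq). There was 1 group of 2 biological replicates, with no treatment named, and nothing in the labels says that the replicates were separate cultures. The optimal list holds the peaks that the depositors kept by the irreproducible discovery rate (IDR), a measure of how well ranked peaks repeat between lists. A place on it does not by itself mean a peak in both replicates: 85.4% of optimal peaks had a peak summit within 100 bp of their own in each. That share depends on the distance allowed. For summits at Kcn genes it was 89.3% within 100 bp and 95.7% within 250 bp.

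Potassium channels let potassium leave or enter the cell and so hold the membrane potential negative. In lymphocytes the outflow through voltage-gated and calcium-activated channels keeps up the electrical drive for calcium entry after antigen receptor signalling. Pore subunits fall into voltage-gated, inward rectifier, 2-pore domain and calcium- or sodium-activated families, and auxiliary subunits bind the pores and alter their gating or their transport to the surface.

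Sequence could be read only for the separately deposited mm9 list, since a genome of that build was at hand. The windows below are 101 bases of the plus strand of mm9 centred on a summit. All but that of Kcnn4 were chosen because they lie under strong mm9 peaks, or hold a composite element or, for Kcnh4, a run of ISRE matches. The Kcnn4 window (signal 223.3) was taken by name. Not every window of these kinds is printed, and that of Kcnj13 (327.9), with an AP-1 element, is left out. Capitals mark every match, on either strand, to 1 of 5 elements. These are the ETS-IRF composite element (EICE: GGAA, any 2 bases, GAAA), 2 forms of the AP-1-IRF composite element (AICE: GAAA joined directly to TGANTCA, or TTTC, any 4 bases, TGANTCA), the interferon-stimulated response element (ISRE: GAAA, any 2 bases, GAAA) and the AP-1 element alone (TGANTCA). Both AICE forms contain the AP-1 letters, so such a window counts under both.
Kcnj15: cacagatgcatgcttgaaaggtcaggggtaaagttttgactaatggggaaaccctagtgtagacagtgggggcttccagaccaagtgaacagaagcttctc
Kcnq5: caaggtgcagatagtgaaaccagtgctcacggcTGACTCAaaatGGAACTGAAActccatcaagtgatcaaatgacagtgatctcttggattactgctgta
Kcnmb3: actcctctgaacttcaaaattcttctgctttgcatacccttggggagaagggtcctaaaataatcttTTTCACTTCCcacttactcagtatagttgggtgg
Kcnk13: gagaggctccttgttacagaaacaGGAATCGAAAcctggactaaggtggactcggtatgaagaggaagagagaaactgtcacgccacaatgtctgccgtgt
Kcna3: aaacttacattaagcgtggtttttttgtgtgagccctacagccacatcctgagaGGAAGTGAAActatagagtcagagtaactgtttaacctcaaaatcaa
Kcnk5: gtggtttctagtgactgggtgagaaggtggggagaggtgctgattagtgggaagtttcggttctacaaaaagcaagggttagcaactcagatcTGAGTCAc
Kcnk10: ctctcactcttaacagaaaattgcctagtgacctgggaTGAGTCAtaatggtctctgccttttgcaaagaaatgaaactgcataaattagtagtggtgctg
Kcnn4: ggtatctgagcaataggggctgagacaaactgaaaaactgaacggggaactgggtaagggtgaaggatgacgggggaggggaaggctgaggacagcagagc
Kcne4: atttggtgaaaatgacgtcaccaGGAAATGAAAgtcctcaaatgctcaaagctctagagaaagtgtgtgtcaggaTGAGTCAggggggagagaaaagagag
Kcnd2: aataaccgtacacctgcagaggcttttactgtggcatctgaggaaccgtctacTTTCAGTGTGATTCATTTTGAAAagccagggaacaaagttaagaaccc
Kcnt2: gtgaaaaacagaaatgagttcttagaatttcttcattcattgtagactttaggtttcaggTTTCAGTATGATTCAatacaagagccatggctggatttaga
Kcnb2: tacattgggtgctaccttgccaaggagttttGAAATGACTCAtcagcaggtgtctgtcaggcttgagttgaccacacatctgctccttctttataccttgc
Kcnh4: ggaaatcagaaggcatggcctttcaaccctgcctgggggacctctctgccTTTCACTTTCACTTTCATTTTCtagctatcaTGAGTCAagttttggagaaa
Their positions on mm9 are chr16:95497364-95497464 for Kcnj15, chr1:21415898-21415998 for Kcnq5, chr3:32389974-32390074 for Kcnmb3, chr12:101225116-101225216 for Kcnk13 and chr3:106841167-106841267 for Kcna3. The Kcnk5 window is chr14:20993205-20993305, that of Kcnk10 chr12:99763198-99763298, that of Kcnn4 chr7:25158669-25158769 and that of Kcne4 chr1:78808936-78809036. The Kcnd2 window is chr6:21580095-21580195, that of Kcnt2 chr1:142202084-142202184, that of Kcnb2 chr1:15534496-15534596 and that of Kcnh4 chr11:100596916-100597016. GENCODE transcripts of mm9 place the windows of Kcna3 and Kcnh4 downstream of the gene, that of Kcne4 upstream, and the other 10 in introns. Kcnq5, Kcnmb3, Kcnk13, Kcna3 and Kcne4 carried an EICE, and Kcnq5 and Kcne4 an AP-1 element as well. Kcnk5 and Kcnk10 had an AP-1 element alone. The Kcnd2 window held the gapped AICE on both strands, sharing 1 AP-1 element, while Kcnt2 had 1 gapped AICE, Kcnb2 the joined form and Kcnh4 a run of 3 ISRE matches beside an AP-1 element. Kcnj15 and Kcnn4 matched none of the 5. A match describes letters, not a bound site, and the lack of one says only that these letters are not in the window.

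Of the 94 Kcn genes, 62 were bound and 32 were not, a share of 66.0% (95% Wilson interval 55.9 to 74.7) beside 62.3% of all protein-coding genes. Counts by gene length are given beside all genes of the same length, since longer genes offer more sequence to be bound. Among Kcn genes under 20 kb, 18 of 36 were bound (50%, all genes 52.2%), and from 20 to 60 kb 19 of 27 were (70.4%, all genes 72.0%). From 60 to 200 kb the count was 11 of 13 (84.6%, all genes 78.9%), and at 200 kb or more 14 of 18 (77.8%, all genes 71.5%). The intervals of all 4 Kcn shares held the share of all genes of the same length. Bound members had a median length of 46705 bp and unbound members 16421 bp. The intervals cover counting error over genes, which are not replicates, and no test over genes was made.

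By the authors' signal value, an enrichment measure of unstated scale that ranks peaks within a list, 17 members (18.1%) reached 100 or more, beside 15.3% of all genes. The median strongest signal of bound members was 68.6, and that of all bound genes was 58.3. Split by gene length, it was 51.7 against 52.3 under 20 kb and 96.7 against 57.9 from 20 to 60 kb. From 60 to 200 kb it was 61.1 against 73.9, and at 200 kb or more 74.8 against 99.3. Signals of 100 or more were reached by 5 of 36, 8 of 27, 2 of 13 and 2 of 18 members in these classes. Among all genes the counts were 1078 of 11652, 972 of 5818, 913 of 3168 and 353 of 989. The shorter conservative list had a summit at 57 members (60.6%, all genes 57.4%). Inside the gene itself, 44 members (46.8%) had an optimal summit, beside 41.9% of all genes. By family, the bound genes were 25 of 40 voltage-gated pore genes (62.5%), 10 of 15 inward rectifiers (66.7%) and 8 of 14 2-pore genes (57.1%). They were 6 of 8 calcium- or sodium-activated genes (75%) and 13 of 16 auxiliary genes (81.25%), beside 62.3% of all genes. These families are small and differ in length, with medians from 29675 to 120824 bp, so their shares cannot be set apart. Of all genes, 72.0% from 20 to 60 kb and 78.9% from 60 to 200 kb were bound. The 2-pore genes had the highest median strongest signal, 123.5, against 56.6 for voltage-gated pores, 79.1 for inward rectifiers, 64.5 for calcium- or sodium-activated and 55.3 for auxiliary genes.

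**Figure D1:**
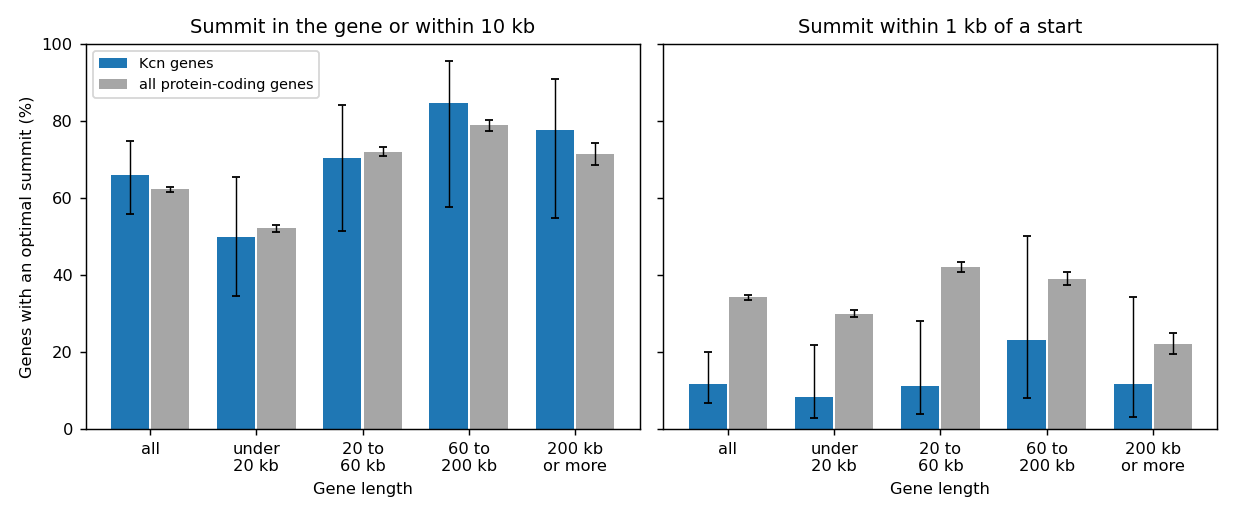
Percent of genes with an optimal IRF4 summit, for the 94 Kcn genes (blue) and all protein-coding genes (grey), overall and by gene length; left, summit in the gene or within 10 kb, right, within 1 kb of an annotated start. Error bars are 95% Wilson intervals; on the left the pairs lie close together (66.0% and 62.3% overall), and on the right the Kcn bars are lower (11.8% and 34.3% overall).

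Binding at Kcn genes lay mostly away from their starts. A summit within 1 kb of the start was found at only 11 of the 93 members with an annotated start, 11.8% (6.73 to 19.9), beside 34.3% of all genes. This comparison was chosen after seeing the data. With the gene's 5′ end added as a start, which brought in Kcnn1, the shares were 12.9% and 35.1%. The lower share was seen in every length class: 8.33% against 30.1% under 20 kb, 11.1% against 42.1% from 20 to 60 kb, 23.1% against 39.1% from 60 to 200 kb and 11.8% against 22.2% at 200 kb or more. In the class from 60 to 200 kb, and in that of 200 kb or more, the Kcn interval held the value of all genes. Conversely, 50 members (53.8%) were bound without a summit at their start, beside 28.5% of all genes. GC content of the promoters (250 bases before to 50 after a start) was close to that of all genes, with a median of 58.0% over 94 promoters of 69 members and 56.7% over all genes. Among all genes the promoters of those bound at a start were richer in GC (60.3%), whereas those of Kcn genes bound there had 53.8%, from only 16 promoters of 10 genes (quartiles 49.4 and 60.4%). The part of promoter type in the low share was not tested.

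The 187 summits at Kcn genes, none shared between members, comprised 120 inside a member, 37 upstream and 30 downstream. Their median signal was 40.8, that of all optimal peaks was 41.4, and 47 of them (25.1%) fell among the strongest 25% of the list. The member's own start was within 1 kb of 14 summits, 7.73% of the 181 that could be set against it, beside 22.2% over all genes and their summits. A different protein-coding gene had its start within 1 kb of 20, and 153 (81.8%) were farther than that from every start, near the 80.6% of all optimal peaks. Over all searched sequence, genes with their flanks, there were 1.49 summits per 100 kb at Kcn genes and 2.96 at all genes. By gene length the density was 3.30 against 4.70 under 20 kb, 4.01 against 3.86 from 20 to 60 kb, 1.93 against 2.84 from 60 to 200 kb and 0.674 against 1.16 at 200 kb or more. Single summits were found at 19 members, 2 to 4 at 30, and 5 or more at 13.

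The replicates were compared by their relaxed lists (215095 and 300000 peaks), which keep weak peaks. Both held a peak summit within 100 bp for 167 of the 187 summits, 89.3% (84.1 to 93.0), beside 85.4% of all optimal peaks. A match may therefore be weak, and that of the Kcnj5 summit ranked 146775 in replicate 2. At these matched summits replicate 2 had the higher signal in 134 cases, with a median log2 ratio of replicate 2 to replicate 1 of 0.51, close to the 0.53 over all optimal peaks. The ratios ran from -1.36 at the single Kcnj5 summit to 2.48. Of the 187 summits, 134 (71.7%) had a summit of the conservative list within 100 bp. That list is not a plain subset of the optimal one and held 152 summits at Kcn genes. How deeply each replicate was sequenced is not known, which leaves the precision of its signals unknown.

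**Figure D2:**
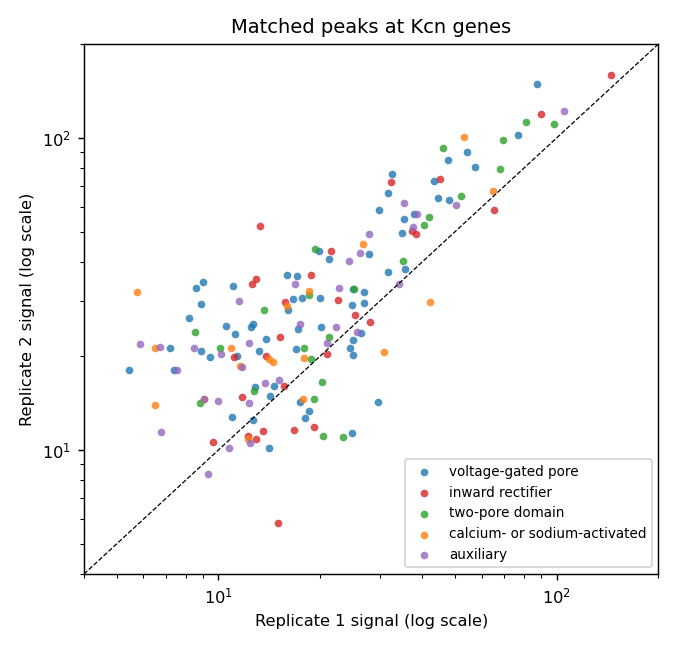
Signal in replicate 1 (x axis, log scale) and replicate 2 (y axis, log scale) at the 167 matched summits of Kcn genes, coloured by family, with the line of equality. Most points (134) lie above the line, and the strongest peaks rank high in both replicates.

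**Figure D3:**
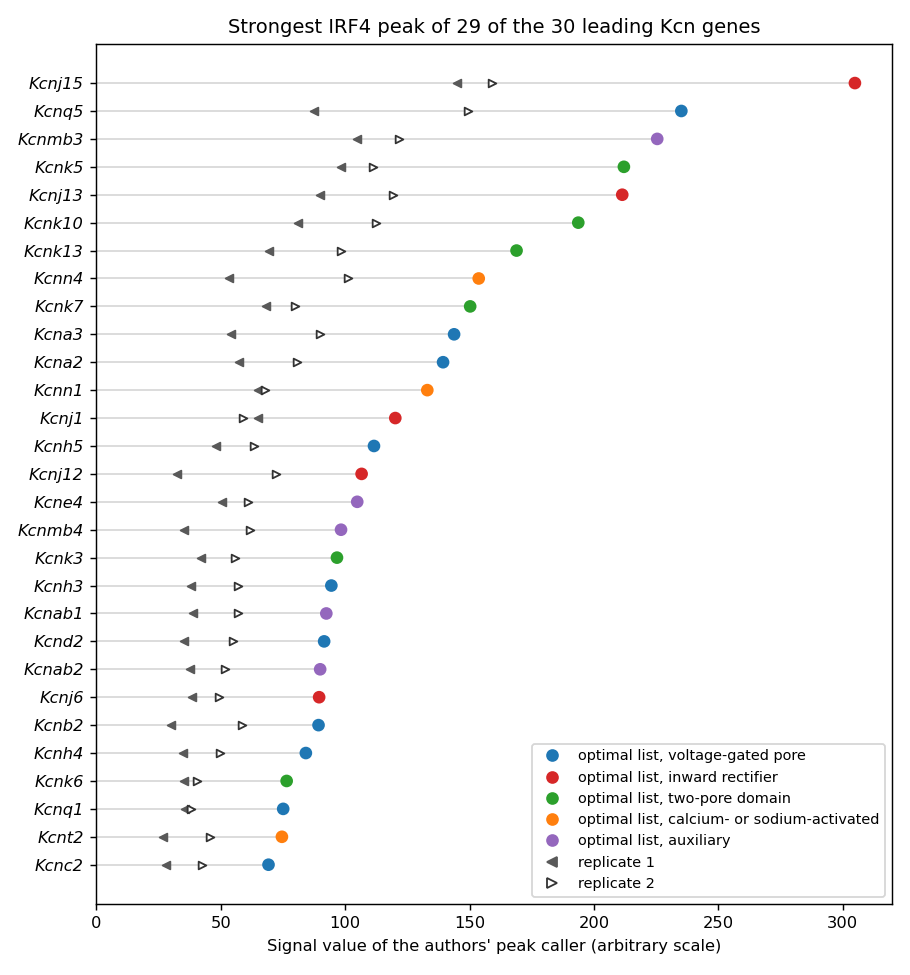
Strongest IRF4 peak of 29 of the 30 Kcn genes with the highest signal: circles, signal in the optimal list (pooled reads), coloured by family; triangles, the matched peak in each replicate. Kcnj15 leads at 304.9, and Kcnj1 (120.1) has the lower signal in replicate 2 (58.9 against 65.1).

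Of a list of 7 channel genes with a known part in lymphocytes, 5 had summits (71.4%), a share near the 62.3% of all genes, with strongest signals from 89.9 to 212.0, and Kcnk9 and Kcnk18, both 2-pore channel genes, had none. Kcnn4, the calcium-activated channel that opens through bound calmodulin, had 4 summits, all in the conservative list. Its strongest, at chr7:24373534-24373873 on mm10, lay 3441 bp after the start inside the gene and reached 153.7 in the optimal list, 53.2 in replicate 1 and 101.03 in replicate 2. A further Kcnn4 summit stood 463 bp before the start, with a signal of 69.4 that was higher in replicate 1 (42.4) than in replicate 2 (29.7). Kcnn4 was thus among the few members with a peak near the start, and its 2 leading peaks ranked the replicates in opposite order.

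Kcna3, the voltage-gated channel that sets the resting potential of many lymphocytes, is a gene of only 1968 bp and had no summit inside it. Its strongest peak, at chr3:107038232-107038371, stood 192 bp past the gene's end and reached 143.8, against 54.2 and 89.9 in replicates 1 and 2. A weaker summit (25.9) followed farther downstream. The next gene on the chromosome, Kcna2, a related pore subunit best known from axons, begins 52753 bp on and had a peak of 139.3 (57.2 and 80.6 in the replicates) 6144 bp before the gene. Another of 61.4 stood 9371 bp before it. The promoter table places the Kcna2 start farther inside the gene, 16828 bp from the stronger of these summits. The stretch between both genes thus held a peak above 100 at either end, and each was present in both replicates.

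Kcnk5, an acid-sensitive 2-pore background channel also found in T cells, had a summit of 212.0 at chr14:20173957-20174119, with 98.2 in replicate 1 and 111.0 in replicate 2. A second, of 32.8, lay 34 bp from its start. Kcnk3, an acid-sensitive relative, had 3 summits inside the gene, led by 96.7 (41.9 and 55.8). Kcnab2, an auxiliary beta subunit of Kcna channels, had 5, of which the strongest (89.9) lay past its end inside the neighbouring gene Chd5 and another of 36.8 stood 85 bp from the start. Among these 5 genes, Kcnn4, Kcnk5 and Kcnab2 were bound within 1 kb of a start, and Kcna3 and Kcnk3 were not.

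The promoters of Kcnk5 and Kcnk13 are printed as examples with a summit inside, at base 285 and base 171 of the window. Kcnk10 also had a promoter with a summit inside, at base 241, which is not printed. They run 5′ to 3′ on the gene's strand of GRCm38, from RefSeq, at chr14:20181733-20182032 on the minus strand and chr12:99964249-99964548 on the plus strand.
Kcnk5: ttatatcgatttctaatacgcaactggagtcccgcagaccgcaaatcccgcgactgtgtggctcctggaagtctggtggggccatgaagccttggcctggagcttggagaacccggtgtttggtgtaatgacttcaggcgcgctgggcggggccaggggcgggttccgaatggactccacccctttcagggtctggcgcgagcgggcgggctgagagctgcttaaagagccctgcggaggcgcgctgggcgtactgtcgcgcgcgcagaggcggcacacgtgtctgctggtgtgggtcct
Kcnk13: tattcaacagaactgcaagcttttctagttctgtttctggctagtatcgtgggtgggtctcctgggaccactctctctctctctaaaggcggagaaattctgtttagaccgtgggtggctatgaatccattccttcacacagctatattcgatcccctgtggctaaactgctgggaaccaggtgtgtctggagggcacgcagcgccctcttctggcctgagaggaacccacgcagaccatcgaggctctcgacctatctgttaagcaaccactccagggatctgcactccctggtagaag
Neither held any of the 5 elements, an octamer (ATGC joined directly to AAAT) or an E-box (CAGCTG), so no letter is capital. Over all 94 Kcn promoters the shares with a match on either strand were 1.06% for EICE (2.55% of all promoters), 4.26% for AP-1 (7.04%), 7.45% for ISRE (3.38%) and 25.5% for the E-box (15.7%). Neither AICE form was found in a Kcn promoter, and each was in under 1% of all promoters (0.114% joined, 0.0855% gapped).

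**Figure D4:**
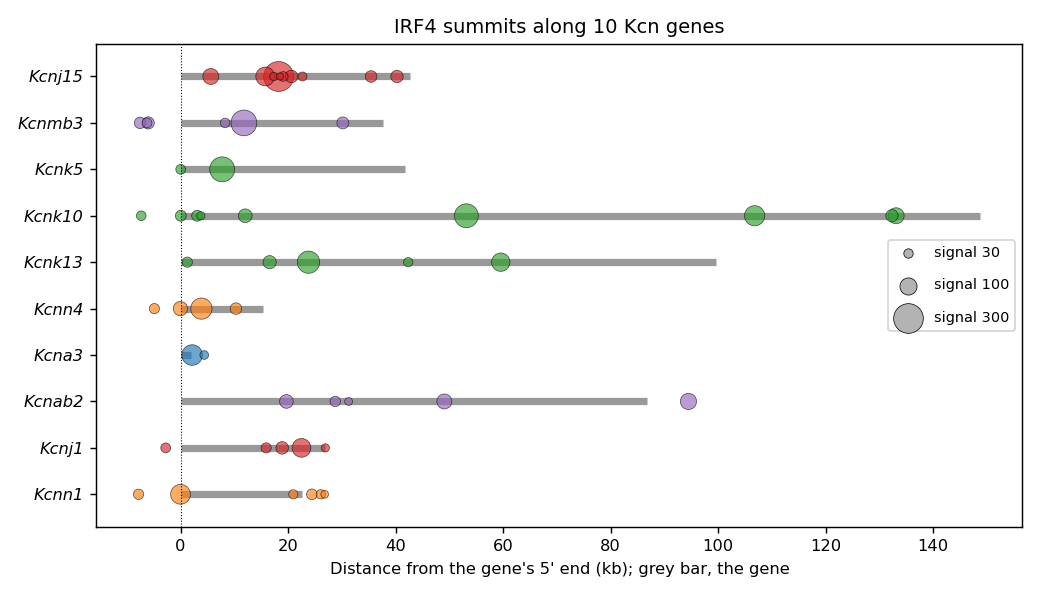
IRF4 summits (circles, area by signal, colour by family) along 10 Kcn genes drawn to scale from the gene's 5′ end in kb; grey bars are the genes. Kcnj15 carries 10 summits with its strongest (304.9) inside the gene, whereas the strongest of Kcna3 (143.8) lies just past the gene's end.

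Among the other 2-pore genes, which give cells their leak current, Kcnk10 and Kcnk13 had the most summits. Kcnk10, a stretch- and lipid-sensitive channel, had 9 summits led by 193.7 (80.9 in replicate 1 and 112.3 in replicate 2), and summits of 40.8 and 40.5 stood 53 bp and 10 bp from its 2 annotated starts. Kcnk13 had 5, led by 168.9 (69.2 and 98.5) in the gene, with 35.4 at 80 bp before the start. Kcnk7 had 1 peak of 150.2 (68.2 and 79.7), which lay past its end inside Ehbp1l1. Kcnk2, a relative of Kcnk10, had 2 weaker summits, the higher at 38.9 (18.7 and 19.5), while those near Kcnk6 (76.5) and Kcnk4 (25.7) lay at the starts of Yif1b and Bad. High signal in this family thus rested on 4 genes, Kcnk5, Kcnk10, Kcnk13 and Kcnk7, each above 150 in the optimal list.

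Kcnj15, an inward rectifier of epithelia, had the strongest peak of any Kcn gene, 304.9 at chr16:95275691-95275912, with 144.9 in replicate 1 and 159.1 in replicate 2. All of its 10 summits lay inside its 42703 bp, the next strongest at 121.0 and 86.5. Kcnj13, a channel of pigment epithelium and choroid plexus, followed with 1 peak of 211.4 (90.1 and 119.2), downstream and inside Gigyf2. Kcnj1, the potassium secretion channel of the kidney, had a peak of 120.1 that lay 929 bp from a start and was 65.1 in replicate 1 and 58.9 in replicate 2. It was the 1 leading peak of the 15 strongest that was not higher in replicate 2.

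The other bound inward rectifiers were Kcnj12 (106.6), Kcnj6 (89.5), Kcnj10 (68.7), Kcnj14 (52.6), Kcnj9 (46.6), Kcnj16 (43.0) and Kcnj5 (20.6). Kcnj6, a subunit of the channels gated by G proteins, had 7 summits, 4 of them inside its 252717 bp and the strongest downstream of it. The peaks of Kcnj10 and Kcnj14 stood 143 bp and 11 bp from the starts of Pigm and Grwd1. Kcnj5 was the weakest bound member, and its peak (15.04 and 5.84) was not in the conservative list.

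In the voltage-gated family Kcnq5, a subunit of the slow M-current that restrains neuronal firing, led with 235.1 (87.6 in replicate 1 and 149.4 in replicate 2) at chr1:21425759-21425969. That summit lay inside the gene but 536073 bp from its start, and the nearest start was that of Khdc1b, 42313 bp away. Kcnq5 had the most summits of any member, 14 over 564252 bp, and 5 of them exceeded 100. Kcnh5, an ether-a-go-go channel, reached 111.6 (48.0 and 63.3). Both replicates held the leading peaks of Kcnq5 and Kcnh5, and replicate 2 was higher at each.

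Further bound voltage-gated genes with a strongest signal above 60 included Kcnh3 (94.4), Kcnd2 (91.5), Kcnb2 (89.3), Kcnh4 (84.2), Kcnq1 (75.1) and Kcnc2 (69.2). Kcnb2, a delayed rectifier gene, and Kcnq1, the channel of the heart's slow repolarizing current, each had 6 summits inside the gene. Kcnh3's peak stood 134 bp from the start of Mcrs1. Kcnc1, Kcng2, Kcns3, Kcnh2, Kcnh1, Kcna7, Kcnh6, Kcnd3, Kcng4, Kcng3 and Kcns1 had strongest signals from 56.6 down to 24.0. These weaker members include the rapid repolarizing channel gene of the heart, Kcnh2, whose 2 summits both lay in its flanks.

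Kcnn1, a small-conductance calcium-activated channel, had 133.0 (64.9 and 67.6) at 8 bp before the gene's 5′ end, which is 2441 bp before the start in the promoter table, and 5 further summits of at most 38.7. Several of those stood near the starts of Arrdc2 and Ccdc124. The sodium-activated Kcnt2 had 74.5 (26.8 and 45.8), its relative Kcnt1 25.5, the small-conductance Kcnn3 54.5, and Kcnma1, the large-conductance channel, 5 summits led by 51.4 (30.9 and 20.6). Kcnn4 and Kcnn1 were the members of this family above 100.

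Auxiliary genes were led by Kcnmb3, a beta subunit of the large-conductance channel, with 225.4 at chr3:32491033-32491206 (104.8 in replicate 1 and 121.5 in replicate 2), 860 bp from an annotated start, and 6 summits in all. Kcne4, which can inhibit the channel made by Kcna3, had 1 peak of 104.8 (50.3 and 60.8) at 4478 bp before its start, and Kcnmb4 had 98.3 (35.3 and 61.7). Kcnab1 reached 92.4, Kcnip3 68.5, Kcnip2 55.3, Kcne2 50.8, Kcne1 47.7, Kcnab3 44.2, Kcnip1 39.6, Kcnip4 31.1 and Kcnmb2 24.3. Kcnip4, the longest member at 1135620 bp, had that single summit. Kcnab1, Kcnab2 and Kcnab3, the whole beta family, each had a summit within 1 kb of a start, but all of these were weak (16.04 to 36.8).

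Peaks counted for a member were not always nearest to its own start. For 49 members at least 1 summit had the member's start as the nearest of all protein-coding starts, which held for 124 of the 187 summits. The other 13 bound members had none. For 1 of these, Kcnb2, this could not be judged. It was given no start here, because the mm9 annotation lists its symbol more than once. At 8 members the strongest summit itself stood within 1 kb of another gene's start, which were Kcna7, Kcne2, Kcnh3, Kcnip2, Kcnj10, Kcnj14, Kcnk4 and Kcnk6. Farther than 1 kb, another gene's start was still the nearest to the strongest summit of further members. These included Kcnq5 (Khdc1b), Kcnd2 (Tspan12), Kcnab1 (Ssr3), Kcnq1 (Cdkn1c) and Kcnh4, whose summit lay inside Rab5c. At 18 of the 62 bound members every summit lay in the flanks, and 44 had a summit inside the gene. Of all genes, 13476 were bound and 9072 had a summit inside, so this does not set Kcn genes apart. The counts by nearest start and by another gene's start were not made over all genes. These data do not tie a peak to the gene it acts on.

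The 32 Kcn genes without an optimal summit included some of the longest. They comprised 15 voltage-gated, 5 inward rectifier and 6 2-pore genes, 2 of the family grouped as calcium- or sodium-activated, 3 auxiliary genes and Kcnrg, a regulator of voltage-gated channels. Kcnh7 (490878 bp), Kcnn2 (417138 bp), Kcnh8 (376486 bp), Kcnq3 (300263 bp), Kcnj3 (186348 bp) and Kcnu1 (89317 bp) were the longest. Kcnh8, Kcnn2 and Kcnj3 were also more than 200 kb from any optimal summit. In the relaxed pooled list, which keeps weak peaks, the strongest signal at the 32 genes ran from 6.98 to 29.2 with a median of 17.5, and 5 genes, Kcna4, Kcna5, Kcnj8, Kcns2 and Kcnv1, had no peak even there. Of the relatives of Kcna3, Kcna1, Kcna4, Kcna5, Kcna6 and Kcna10 were among the 32, whereas Kcna2 (139.3) and Kcna7 (36.8) were bound. Kcna6 had the highest relaxed signal of them (29.2) and, on the mm9 list, a summit of 47.9 downstream of the gene.

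Just outside the 10 kb limit were Kcnq3 (10999 bp), Kcnv2 (11801 bp) and Kcns2 (12343 bp), and 9 of the 32 had a summit within 25 kb. Just inside it by their only summit were Kcng2, at 9521 bp before its start, Kcns1, at 9280 bp, and Kcnh3, whose summit lay 9277 bp past the gene. Kcng4, Kcng3, Kcnk4, Kcnt1, Kcnmb2, Kcns1 and Kcnj5 were bound in the optimal but not the conservative list, and Kcnmb1 and Kcnrg in the conservative list alone. By chromosome, all 9 Kcn genes of chromosome 1 were bound (interval 70.1 to 100%, all genes there 69.0%) and 1 of 5 on chromosome 6 (3.62 to 62.4%, all genes 57.2%). The unbound genes of chromosome 6 include Kcna1, Kcna5 and Kcna6, which lie close together. Chromosome 16 had 4 of 4 (51.0 to 100%, all genes 70.7%) and chromosome 15 had 1 of 6 (3.01 to 56.4%, all genes 69.1%). These chromosomes were picked after the values were seen, and their counts are too small to set them apart.

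Genes that act with these channels were also examined, in lists too short to be set apart from the 62.3% of all genes that were bound. All 5 genes of store-operated calcium entry, the calcium current that potassium outflow sustains, had a summit: Stim1 (93.2), Orai3 (87.2), Orai1 (51.9), Stim2 (39.6) and Orai2 (13.1). All 8 listed regulators of the Kcnn4 channel did too, led by Pik3c2b, a lipid kinase that activates it, with 10 summits up to 257.8. The sodium-potassium pump, which builds the potassium gradient, had 2 of 3 genes bound. Of 7 partners of pore subunits without a Kcn symbol only Amigo1, a partner of voltage-gated channels, was bound (209.8). Among other ion channel genes, 23 of 26 Cacn calcium channel genes, 8 of 14 Scn sodium channel genes and 15 of 24 TRP genes were bound (88.5%, 57.1% and 62.5%). The Cacn and Scn genes are long, with medians of 104352 and 103050 bp, and 78.9% of all genes from 60 to 200 kb were bound. The TRP genes have a median of 52163.5 bp, and 72.0% of all genes from 20 to 60 kb were bound.

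The label of the line could be checked by binding alone, which is not expression. All 6 B-cell genes examined were bound, led by Pax5 at 353.3, and so were 4 of 6 neuron genes, led by Rbfox3 at 188.6. With 62.3% of all genes bound, the neuron count (66.7%) lies near the background, and lists of 6 genes tell little.

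On mm9, where 49 of 94 Kcn gene symbols had a summit (52.1%, all gene symbols 47.0%), the 101 peaks at Kcn genes lay in introns in 62 cases, downstream in 19, upstream in 17, in untranslated exons in 2 and in a coding exon in 1. Within 50 bp of the summit an EICE was found in 15 (14.9%, 9.21 to 23.1), beside 8.68% of all 27671 peaks. ISRE was found in 5 (4.95%, all peaks 5.79%), the gapped AICE in 3 (2.97%, all peaks 1.12%), the joined AICE in 1 (0.990%, all peaks 1.13%) and AP-1 in 17 (16.8%, all peaks 16.04%). Some IRF element, EICE, AICE or ISRE, was found in 24 (23.8%, 16.5 to 32.9), beside 16.02%. Besides those printed, the EICE peaks were at Kcnk7, Kcnj1, Kcnc2, Kcna7, Kcnma1, Kcnh1, Kcnb2 and further summits of Kcnq5, which had 4 in all. Within 25 bp of the summit the share with an EICE was 8.91% (4.76 to 16.1), beside 5.87% of all peaks, and that with some IRF element 14.9% (9.21 to 23.1), beside 10.4%. At this distance both intervals held the value of all peaks.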

How the data were processed

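IRF4 ChIP-seq peak lists of 2 biological replicates of CH12.LX were analysed; a separate control named in the labels was not used here. The signal of each peak is the deposited value of the authors' peak caller, and the column reserved for a q-value holds values below 0 and was read as a deposited score that ranks nothing here. Per the files' own descriptions, the optimal (44058 peaks) and conservative (35879) IDR lists were made on mm10 from relaxed lists of each replicate (215095 and 300000) and of the pooled reads (300000). The mm9 list (27671) was made from the alignments of both replicates, with no control among its inputs. Not given in the sources used here: aligner, peak caller, thresholds and read depth.

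Summits (peak start plus offset) were counted per RefSeq gene of GRCm38. Starts came from the RefSeq promoter table for 69 Kcn genes and from the gene end, with the strand of mm9 GENCODE, for 24. The remaining 1, Kcnb2, was given none, since that annotation lists its symbol more than once. The 4 Kcn symbols that are not protein-coding were left out. Transcript places and elements were read on mm9 (GENCODE), and no coordinate was converted between builds. Replicate peaks were matched within 100 bp. Since there is 1 group, values are given as shares with 95% Wilson intervals, which cover counting error only, and no p-value was computed; the number of replicates limits what their spread can show.

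Genes were named by a rule: the 15 members with the strongest peak, the 5 with most summits, the lymphocyte list, the 6 longest without a summit, the 3 nearest outside 10 kb, and all other bound members by name. A few genes under it are not reported here. Genes with no pooled relaxed peak, the unbound relatives of Kcna3, and those in only 1 of the IDR lists were named after their values were seen. Members and lists were chosen with earlier results of these data known. Alternatives covered the window, list, replicate, start distance, match distance and element window.

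Tables were handled in pandas 2.3.3 under Python 3.11.15, with figures from matplotlib 3.10.9, arrays from numpy 2.4.6 and Wilson intervals from scipy 1.17.1. On simulated data, 200 of 200 genes with summits set in and 2000 of 2000 elements were recovered.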

Additional observations from a re-analysis of the deposited data

How the results depend on the processing

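Of 34 alternatives, 20 kept the value within its interval or, for counts, within 1.5 times. The share of Kcn genes bound (66.0%, all genes 62.3%) moved with the window and list. It was 46.8% inside genes alone (all genes 41.9%), 75.5% within 25 kb (70.8%) and 51.1% with the stronger 50% of the list (44.9%). Within 10 kb of a start it was 38.7% (all genes 51.2%), and on mm9 51.0% of gene entries (46.9%). The number of summits (187) became 120, 92, 65 and 101 inside genes, in the stronger 50%, near a start and on mm9. Taking only summits whose nearest start is the member's, chosen after seeing the data as were the 1 kb promoter share and its alternatives, gave 52.1% and 124. Matching within 50 bp or 250 bp put 76.5% or 95.7% of summits in the relaxed lists of both replicates. The EICE share within 25 bp was 8.91% (all peaks 5.87%). With either replicate left out, by the 44058 strongest peaks of the other, the bound share was 64.9 to 66.0% (all genes 62.3 to 63.7%). The number of summits was then 188 to 197, and the promoter share 12.9% in both cases (all genes 35.1 to 36.3%). No paired analysis was possible because there is 1 group of samples. Unknown depth limits the members called unbound: a summit was not detected there, which does not show that IRF4 is absent.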
